A study of Homo sapiens with 30 samples.

Results

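Gene expression at day 15 (D15) was compared with day 10 (D10) of directed cardiac differentiation, by RNA sequencing of cultures grown from H7, an established human embryonic stem cell line. The level of a gene is its FPKM (fragments mapped to it, scaled by transcript length and by the library's mapped fragments), and a log2 difference is the difference in log2(FPKM + 1), D15 minus D10 unless another pair is named. Genes entered with at least 5 FPKM in the D10 or the D15 column, which held for 11776 of 41495 entries of the time-course table. NR2F1-AS1 lay just inside that limit, with 5.00 FPKM in its higher column, and CTD-2349P21.10 just outside, with 4.997. A gene is called higher or lower where its log2 difference was at least 1 in size, a 2-fold change. The D10 and D15 groups account for 4 of the 30 libraries of the series, 2 for each day. The table gives 1 value per gene and day, so the spread between libraries is unknown, no test was possible, and a difference is a difference between columns.

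The D10, D15 and cardiomyocyte groups had the same treatment in 1 cell line. Their cells received 12 µM CHIR99021, a GSK3 inhibitor that activates WNT signalling, for 24 hours, then 5 µM IWP4, which blocks the secretion of WNT proteins, for 2 days, both in RPMI1640 with B27 without insulin. Standard B27 followed. The labels give no sort or purification for D10 and D15, so these columns hold every cell type of the dish, and in such bulk RNA fewer cells of a type and less RNA per cell cannot be told apart. The cardiomyocytes used to ask whether a difference persisted, also 2 libraries in 1 column, were taken at day 31 and purified on Percoll density gradients, so later time and purification cannot be told apart. Whether paired libraries of 1 day stem from separate dishes is not stated.

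Early cardiomyocytes divide and express embryonic growth genes. As they mature, they slow down division and build sarcomeres, the arrays of myosin and actin filaments that contract. Cardiac cultures also contain stromal cells, such as fibroblasts and smooth muscle cells, which secrete collagens and cross-link them with lysyl oxidases. Cell cycle genes are known for distinct promoter elements: E2F sites in genes of DNA replication, and the cell cycle genes homology region (CHR), often with CCAAT boxes, in genes of mitosis.

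Of the 11776 genes, 871 (7.4%) were higher and 1914 (16.3%) lower at D15. Counts of called list members below are to be read beside these shares. Over the shorter step from D8 to D10, 145 of 11290 genes (1.28%) were higher and 199 (1.76%) lower. The whole D15 column stood low: the median log2 difference was -0.35 over all 11776 genes, against -0.02 for the cardiomyocytes minus D10. The abundant housekeeping list stood lower still, with 10 of 18 genes lower, none higher and a median of -1.08. Its most changed member, EEF1A1, a translation elongation factor, had 5464 FPKM at D10, 1834 at D15 and 3684 in the cardiomyocytes. Many genes of this list encode ribosomal proteins, elongation factors or tubulins. The log2 differences of its other members ran from -1.19 (HSP90AB1) to 0.37 (SDHA). Whether the list is a steady reference between D10 and D15 was not tested. Messenger RNAs of the mitochondrial genome held 0.943% of the summed FPKM at D10, 7.61% at D15 and 7.62% in the cardiomyocytes. Small RNAs held 40.8% at D10 and 33.7% at D15, and the median log2 difference ran from -0.57 in the shortest protein-coding genes (177 to 2229 nt) to -0.25 in the longest (6166 to 109224 nt). The same medians ran from -0.18 to 0.11 for D10 minus D8 and from -0.12 to 0.10 for the cardiomyocytes minus D10. With D15 rescaled to put the median log2 ratio of protein-coding genes at 0 (a shift of 0.36), 1626 of 12278 genes were higher and 830 lower. The share of higher among all called genes was then 66.2%, in place of 31.3%. Rescaled to the housekeeping list, 5208 of 13864 genes were higher and 202 lower. Rescaled counts of list members below are to be read beside these counts, and no longer beside the shares as deposited. Rescaled to the housekeeping list, the medians of the G1 cyclin, p53 target, cardiac transcription factor, muscle energy, epicardial, endoderm and liver, YAP and SRF, and cholesterol lists turned from below to above 0, and those of the muscle energy, endoderm and liver, and cholesterol lists did so after rescaling to the protein-coding median too. The lists below are therefore given as deposited and rescaled to the protein-coding median, and the part of these column-wide differences in a list's values was not tested.

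Some listed values can be failed estimates, and no fold is given for them. TTN, the giant elastic filament protein of the sarcomere, was listed at 203 FPKM at D10 and at 0 at D15 and in the cardiomyocytes, where the other sarcomere genes were high. The other protein-coding genes listed at 0 in 1 of the 2 columns, 8 with TTN, were TUBB3 and, chosen after their values were seen, CCDC141, NDUFA7, CKS1B, GALT, CFB and ZFP41. In all, 177 genes were listed at 0 in only 1 column, 127 of them small RNAs. Another 68 protein-coding genes above 0 in both columns jumped by at least 2 on the log2 scale and then back by at least 2 between neighbouring columns, 23 of them called higher and 23 lower. PSMA1, a proteasome subunit, led these: it had 113 FPKM at D8, 0.0884 at D10, 84.9 at D15 and 0.29 in the cardiomyocytes. DCAF8 (0.278 FPKM at D10 and 81.9 at D15), IER3IP1 (0.124 and 23.8), TIMM10B (0.155 and 23.5) and NDUFB8 (2.78 and 78.8) had the same shape. All were low at D10 alone between D8 and D15, and low again in the cardiomyocytes. PSMA1 and DCAF8 also alternated over the earlier columns. From D1 to D6, PSMA1 had 194, 0.884, 169.5, 0.29, 72.9 and 0.187 FPKM. TUBB3 alternated the other way, with 0.0848, 190, 0.0433, 162, 0.115 and 207 FPKM, and NDUFA7 did too. In this alternation D15 stood with D8, and D10 with the cardiomyocytes. Its part in other differences from D10 and in the kept calls was not tested. Such reversing genes were left out of the leading genes.

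**Figure D1:**
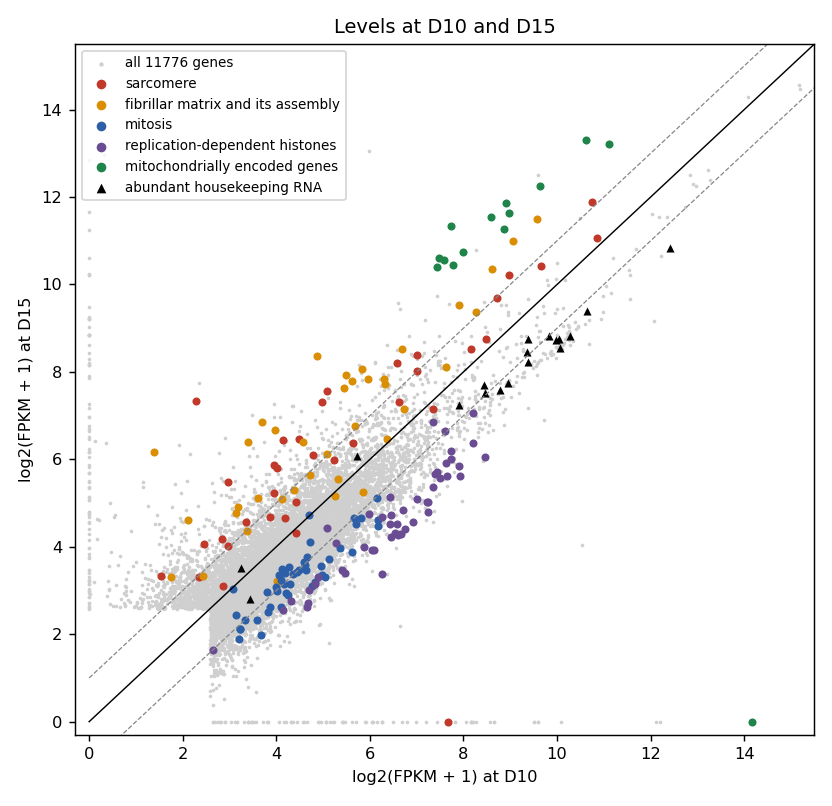
Each point is 1 of the 11776 genes, with log2(FPKM + 1) at D10 on the x axis and at D15 on the y axis; the solid line marks equal levels and the dashed lines a 2-fold difference. On the values as deposited, sarcomere, fibrillar matrix and mitochondrial genes lie mostly above the solid line, mitosis, histone and housekeeping genes mostly below it, and TTN and MT-RNR1 lie on the x axis because they are listed at 0 at D15.

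The 15 leading increases began with MYH7 and LOX. MYH7, the slow (beta) myosin heavy chain of heart muscle, had 3.898 FPKM at D10, 161 at D15 and 359.9 in the cardiomyocytes, the largest log2 difference of all leading genes (5.05). Its level was 2.25 FPKM at D8, so the main increase fell between D10 and D15. LOX, the lysyl oxidase that cross-links collagen and elastin, went from 1.62 FPKM to 71.1 and stood at 12.4 in the cardiomyocytes. For LOX the log2 difference of 4.78 at D15 was followed by one of 2.35 in the cardiomyocytes, both against D10. An increase counts as kept where the cardiomyocytes differed from D10 in the same direction by at least 0.5 of the D15 difference, and as kept in part where they differed by at least 1 but by less than that share. By this rule 10 of the 15 leading increases were kept, 4 in part and 1 not, with the D10 column shared by both differences. Of all 871 higher genes 565 were kept (64.9%), 15 in part and 291 not, so the leading increases were kept at about the same share.

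The other kept increases included secreted and membrane proteins. A2M, a broad protease inhibitor, had 14.6, 152 and 379.6 FPKM at D10, at D15 and in the cardiomyocytes. MGP, a matrix protein that inhibits calcification, had 0.452, 24.6 and 61.6 FPKM in the same order. LAMA2, the alpha chain of the laminin that surrounds muscle fibres, had 2.93, 36.7 and 52.8 FPKM. All 3 were higher in the purified cardiomyocytes than in the D15 culture, as were MYH7, MT-ND4, a mitochondrial complex I subunit (211, 2600.0 and 2904 FPKM), and AHNAK2, a large scaffold protein (3.26, 44.5 and 54.9 FPKM). The water channel AQP1 was near its D15 level in the cardiomyocytes, with 10.2, 129 and 120.3 FPKM. CFI, complement factor I, had 1.22, 40.02 and 26.9 FPKM, CNTN5, a neural cell adhesion molecule, 3.48, 68.4 and 41.9, and INHBA, the subunit of activin A, 0.861, 19.4 and 11.4. These were kept at levels below those of D15.

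Beside LOX, the increases kept in part were those of SCG2, ITGA1 and HBD. SCG2, a secretory granule protein, had 0.357, 31.1 and 3.35 FPKM, and ITGA1, a collagen-binding integrin, had 5.83, 69.6 and 16.2. HBD, the delta chain of haemoglobin, had 0.383, 13.8 and 3.298 FPKM, although none of the 15 blood markers, other globins included, reached 5 FPKM at either day. Tenascin C (TNC), a matrix protein of developing and healing tissue, was the leading increase not kept: it had 28.2 FPKM at D10, 330.2 at D15 and 48.6 in the cardiomyocytes. TNC had been high earlier too, with 164 FPKM at D6 and 73.6 at D8.

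**Figure D2:**
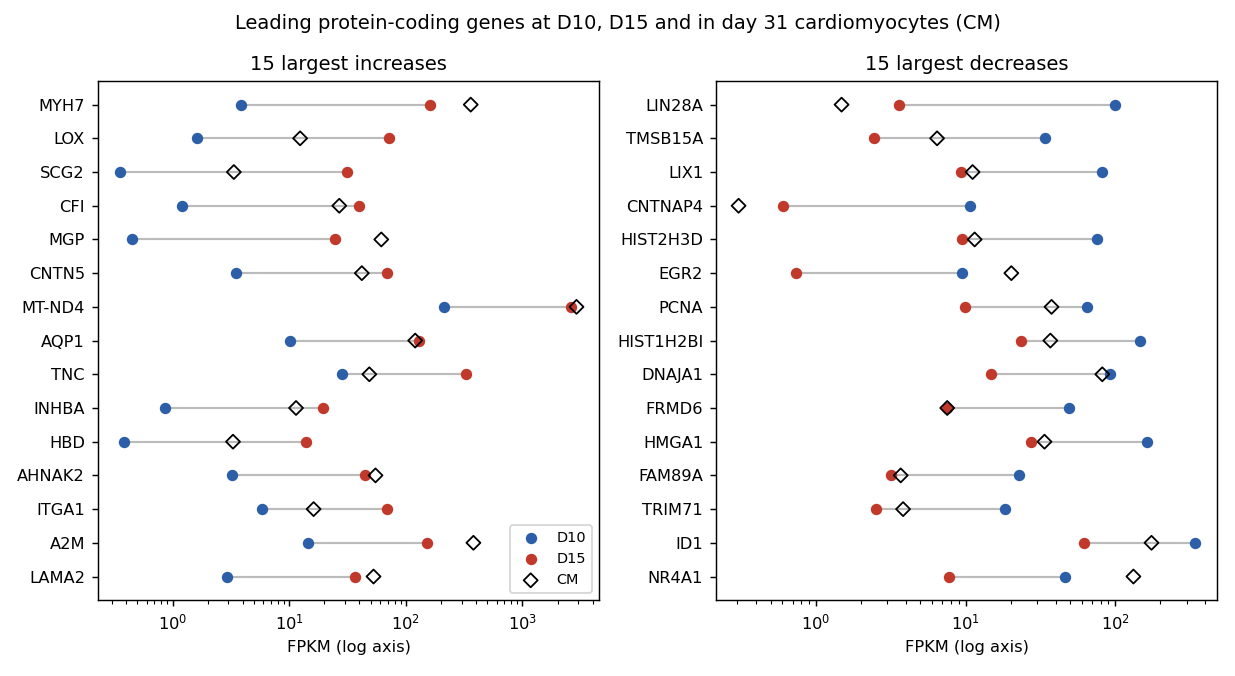
FPKM on a log axis of the 15 protein-coding genes with the largest increases (left) and decreases (right) from D10 (blue) to D15 (red), with day 31 cardiomyocytes as open diamonds; grey lines join D10 and D15. MYH7, A2M, MGP and LAMA2 lie further right in the cardiomyocytes than at D15, LOX, SCG2, ITGA1, HBD and TNC lie back towards D10, and EGR2 and NR4A1 lie above their D10 level.

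LIN28A led the 15 largest decreases. LIN28A, an RNA-binding protein of stem cells that blocks the maturation of let-7 microRNAs, had 98.997 FPKM at D10, 3.57 at D15 and 1.49 in the cardiomyocytes. It had already come down from 708 FPKM in the stem cells to 279.8 at D6 and 161 at D8. HMGA1, an architectural chromatin protein, had 164, 27.2 and 33.7 FPKM, and TRIM71, a ubiquitin ligase that is itself a let-7 target, had 18.3, 2.53 and 3.83. By the same rule 10 of the 15 leading decreases were kept and 5 were not, beside 873 kept (45.6%), 4 in part and 1037 not kept of all 1914 lower genes. The rule was applied to values as deposited, so the low level of the whole D15 column entered these calls. Its part in them was not tested.

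The kept decreases also included TMSB15A, a thymosin that binds actin (33.99, 2.46 and 6.46 FPKM), LIX1 (81.6, 9.34 and 11.2) and FRMD6, a Hippo pathway protein (49.4, 7.57 and 7.55). LIX1 was near 0 in the stem cells (0.104 FPKM) and had 165 FPKM at D6 and 121 at D8, so it was declining before D10. FAM89A had 22.7, 3.17 and 3.69 FPKM, and CNTNAP4, a neurexin-family adhesion protein, had 10.8, 0.604 and 0.305. The histone genes HIST2H3D (75.6, 9.47 and 11.5 FPKM) and HIST1H2BI (145, 23.4 and 36.9) completed the group. Decreases not kept were those of PCNA, the sliding clamp of DNA polymerase, ID1, a BMP-induced inhibitor of differentiation factors, and DNAJA1, a heat shock cochaperone. PCNA had 65.1, 9.93 and 37.5 FPKM, ID1 339, 61.7 and 174, and DNAJA1 92.6, 14.8 and 81.9. EGR2 and NR4A1, both early response transcription factors, were higher in the cardiomyocytes than at D10: EGR2 had 9.51, 0.737 and 20.2 FPKM and NR4A1 46.2, 7.803 and 132.

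Most genes of DNA replication, mitosis and histone supply were lower at D15. In the DNA replication list 30 of 38 genes were lower (78.9%, against 16.3% of all genes), none was higher, and the median log2 difference was -1.45. After rescaling to the protein-coding median 24 of 38 were lower, with a median of -1.15. After rescaling to the housekeeping list the median was -0.49. CDC6, which loads the replicative helicase onto origins, had 30.3 FPKM at D8, 16.96 at D10, 2.57 at D15 and 10.3 in the cardiomyocytes. MCM5, a subunit of that helicase, had 53.6, 29.4, 6.06 and 16.6 FPKM in the same order, and GINS1, which activates it, 26.1, 13.6, 2.39 and 7.06. All of these, like PCNA (109.6 FPKM at D8), were already declining before D10, lowest at D15 and higher again in the cardiomyocytes. The median of all genes was also low at D15 and back in the cardiomyocytes (-0.35 and -0.02, both against D10). Its part in this rebound was not tested. The summed FPKM of the list was 1349 at D8, 839 at D10, 296 at D15 and 551 in the cardiomyocytes. TYMS, the enzyme that makes thymidylate, was the least changed member and was chosen after its values were seen: it had 15.6, 13.4 and 36.2 FPKM at D10, at D15 and in the cardiomyocytes.

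In the mitosis list 31 of 46 genes were lower (67.4%), none was higher, and the median was -1.11. That median lies next to the housekeeping list's -1.08: rescaled to that list, mitosis had a median of -0.12, with no gene lower and 1 higher. Rescaled to the protein-coding median, 15 of 46 genes were lower and the median was -0.82. UBE2C, which marks mitotic cyclins for destruction, had 48.3 FPKM at D10, 13.7 at D15 and 18.98 in the cardiomyocytes. CCNB1, the cyclin that drives entry into mitosis, had 71.5, 21.3 and 20.1 FPKM in the same order. MAD2L1, a spindle checkpoint protein, had 31.9, 8.87 and 9.64 FPKM, and NCAPH, a condensin subunit, 11.7, 2.94 and 6.08. In the cardiomyocytes the first 3 stood closer to D15 than to D10, and NCAPH between both. The list's summed FPKM was 2243 at D8, 1156 at D10, 495 at D15 and 599 in the cardiomyocytes, so a large part of the decline came before D10. Mitotic transcripts were still measured at D15: 38 of 46 genes had at least 5 FPKM there, and the checkpoint kinase gene BUB1 and the proliferation marker MKI67, both chosen after their values were seen, had 25.4 and 10.2 FPKM (24.8 and 16.3 at D10). The values are lower levels of these transcripts, and no count of dividing cells was made.

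Genes that govern entry into the cycle were less uniform. In the list of G1 cyclins and their inhibitors 10 of 20 genes were lower and 2 higher, with a median of -0.96. Rescaling to the protein-coding median left 5 lower and 2 higher (median -0.62), and rescaling to the housekeeping list turned the median to 0.20. The phosphatase gene CDC25A had 12.9, 2.22 and 6.77 FPKM, and CDK4, the kinase partner of D cyclins, had 98.7, 30.8 and 36.02. CDKN2B, an inhibitor of that kinase, was higher at D15 and in the cardiomyocytes than at D10, with 2.31, 11.7 and 8.22 FPKM. RBL1, a relative of the retinoblastoma protein, was the other higher gene but is one of the reversing genes (8.58 FPKM at D8, 0.57 at D10, 12.9 at D15 and 0.785 in the cardiomyocytes). The inhibitor CDKN1A, chosen after its values were seen, stayed under 5 FPKM at both days, with 0.976 and 3.59, and had 7.35 in the cardiomyocytes. The more abundant inhibitors CDKN1B (20.6, 13.2 and 23.2 FPKM) and CDKN1C (43.7, 34.1 and 23.4), chosen likewise, were lower at D15 but not called. CDKN2A, CDKN2C and CDKN2D stayed under 5 FPKM at both days. Of 13 measured p53 targets, 2 were lower (15.4%) and 1 higher (7.69%), near the shares of all genes (16.3% and 7.4%). Their median was -0.78, or -0.44 rescaled to the protein-coding median and 0.39 rescaled to the housekeeping list. The called genes were SESN2 (11.8, 4.196 and 5.22 FPKM), GADD45A (23.03, 10.2 and 26.6) and, as the higher gene, the DNA repair factor DDB2 (2.35, 6.41 and 5.03).

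Replication-dependent histone genes, whose messages are made in S phase and lack a poly(A) tail, were measurable here because the libraries were made from total RNA depleted of ribosomal RNA. Of 48 genes, 44 were lower (91.7%) and none higher, with a median of -1.90, the lowest of all 28 lists. Rescaled to the protein-coding median 40 were lower (median -1.55), and rescaled to the housekeeping list 18 were lower (median -0.84). HIST1H3B had 755 FPKM at D8, 352 at D10, 65.4 at D15 and 114 in the cardiomyocytes. HIST1H3H had 309, 150.3, 26.9 and 23.7 FPKM, and HIST1H3G 266, 100.4, 18.7 and 25.8. All 3 were lower at D10 than at D8, lower again at D15, and stayed under their D10 level in the cardiomyocytes. Near-identical copies share reads within this family, so the value of a single histone gene is uncertain. The exceptions among the list were the linker histone genes HIST1H1A, HIST1H1E and HIST1H1D and the isolated gene HIST4H4, chosen after their values were seen. HIST1H1D, for example, had 162 FPKM at D10 and 114 at D15.

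**Figure D3:**
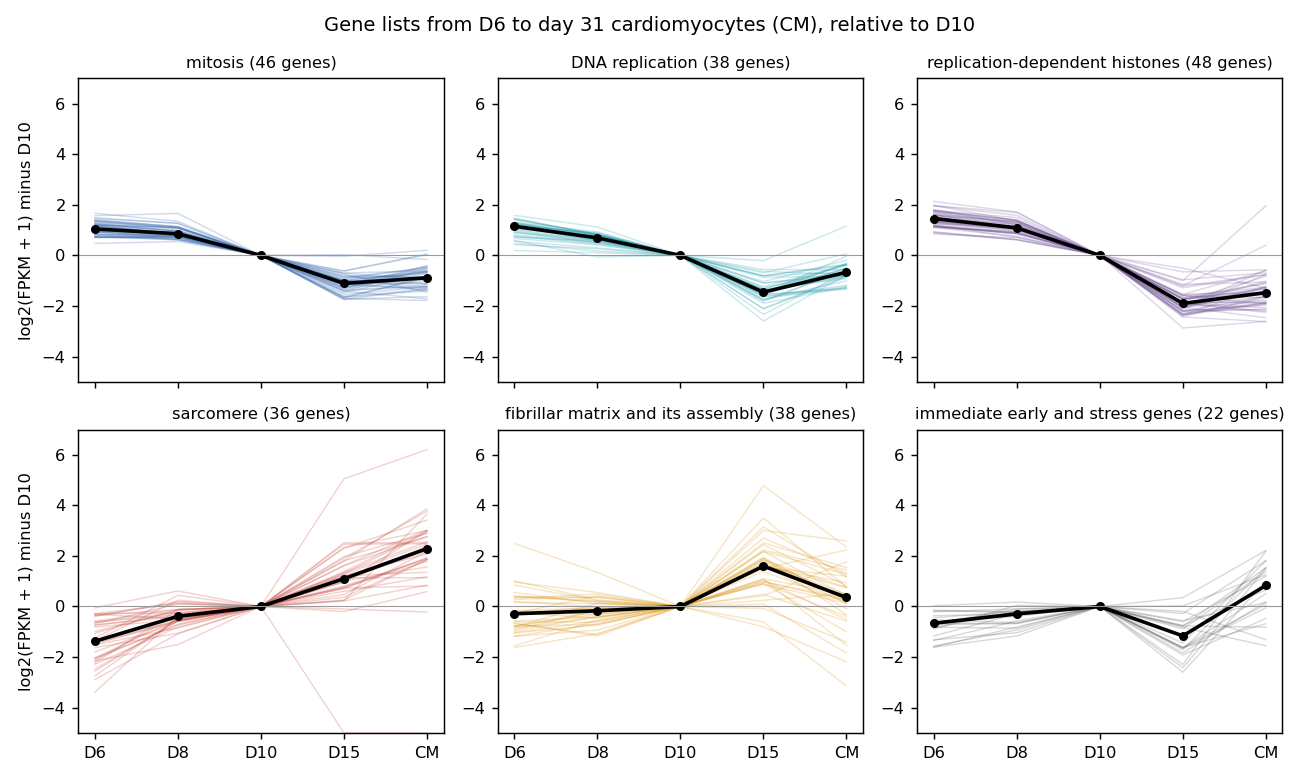
For 6 gene lists, thin lines give each member's log2(FPKM + 1) minus its own D10 level at D6, D8, D10, D15 and in day 31 cardiomyocytes (CM), and the black line gives the list's median. The cell division lists decline from D6 to D15, the sarcomere list climbs throughout, the fibrillar matrix list peaks at D15 (median 1.60 above D10) and the immediate early list dips at D15; the sarcomere line that leaves the panel at D15 is TTN, listed at 0.

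Promoters of some of these genes are printed to show where the letters of known elements lie in the sequence. Each was picked from the more changed members of its list because its promoter holds the motifs named for it. The printed sequences therefore do not show how common a motif is in a list. The sequences are from RefSeq on GRCh38.p14, while the expression files were made on hg19, and run from 250 bases before to 30 bases after the start of transcription, 5′ to 3′ in the direction of the gene. They show a mitosis gene with a CHR and a CCAAT box (MAD2L1 and DLGAP5, the latter chosen after its values were seen, 26.3 FPKM at D10 and 7.63 at D15), a replication gene with an E2F site (PCNA), a histone gene with a TATA box (HIST2H3D, named H3C13 in RefSeq) and a glycolytic gene with hypoxia core motifs (HK2). Capitals mark matches to the motif letters, on either strand, and whether a match is a working element was not tested. In MAD2L1, ATTGG matches the CCAAT letters on the other strand and begins at base -229 from the start of transcription. TTTGAA, the CHR letters, begins there at base 25, after the start. In DLGAP5 both TTTGAA and TTCAAA are CHR letters. In PCNA capitals mark the E2F letters read on the other strand, in HIST2H3D CCAAT and TATAAA, and in HK2 CACGT, the other strand of ACGTG.
MAD2L1, chr4:120066819-120067098, minus strand: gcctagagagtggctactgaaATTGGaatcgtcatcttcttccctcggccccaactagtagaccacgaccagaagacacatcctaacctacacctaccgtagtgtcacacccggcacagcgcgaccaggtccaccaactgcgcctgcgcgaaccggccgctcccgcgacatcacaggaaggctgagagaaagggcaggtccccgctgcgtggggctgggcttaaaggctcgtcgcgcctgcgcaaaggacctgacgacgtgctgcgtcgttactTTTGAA
DLGAP5, chr14:55191556-55191835, minus strand: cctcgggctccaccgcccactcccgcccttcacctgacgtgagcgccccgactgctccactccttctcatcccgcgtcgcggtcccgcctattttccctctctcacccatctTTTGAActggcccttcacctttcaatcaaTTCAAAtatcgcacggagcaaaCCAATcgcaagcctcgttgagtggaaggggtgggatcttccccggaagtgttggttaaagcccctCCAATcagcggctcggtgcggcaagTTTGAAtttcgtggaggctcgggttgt
PCNA, chr20:5126593-5126872, minus strand: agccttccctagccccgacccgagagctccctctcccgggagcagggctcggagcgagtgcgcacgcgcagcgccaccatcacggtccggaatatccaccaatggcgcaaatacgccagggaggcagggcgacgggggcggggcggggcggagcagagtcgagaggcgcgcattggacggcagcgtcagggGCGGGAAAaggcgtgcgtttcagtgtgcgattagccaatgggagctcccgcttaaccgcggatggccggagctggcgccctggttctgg
HIST2H3D, chr1:149813664-149813943, minus strand: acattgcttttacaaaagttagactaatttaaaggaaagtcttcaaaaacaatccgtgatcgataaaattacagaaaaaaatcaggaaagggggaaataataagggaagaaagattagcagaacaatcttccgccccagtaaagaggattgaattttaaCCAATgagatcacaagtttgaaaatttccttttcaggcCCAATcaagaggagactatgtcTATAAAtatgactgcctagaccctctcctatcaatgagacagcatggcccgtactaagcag
HK2, chr2:74833877-74834156, plus strand: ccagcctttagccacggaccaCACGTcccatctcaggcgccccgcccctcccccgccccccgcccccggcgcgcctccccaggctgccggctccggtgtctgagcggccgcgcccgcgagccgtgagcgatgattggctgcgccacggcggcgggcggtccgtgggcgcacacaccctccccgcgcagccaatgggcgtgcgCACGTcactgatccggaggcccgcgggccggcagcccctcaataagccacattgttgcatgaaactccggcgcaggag

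Counted over windows of 300 bases (250 before to 50 after the start), on both strands and without removing overlaps between motifs, the CHR letters TTTGAA or TTCGAA occurred in 30 of 40 mitosis promoters (75.0%). They occurred in 2 of 34 replication promoters (5.88%) and in 18 of 42 histone promoters (42.9%). Their share was 11.4% in the 8914 promoters of genes with at least 5 FPKM and 16.6% in all 27305 promoters. Between the replication and mitosis lists, E2F letters (TTTCCCGC, TTTGGCGC, TTTCGCGC or TTTGCCGC) had the opposite distribution. They occurred in 19 of 34 replication promoters (55.9%) and 3 of 40 mitosis promoters (7.5%), against 5.62% of the promoters of genes with at least 5 FPKM and 3.33% of all. E2F letters also occurred in 13 of 42 histone promoters. Both CHR and E2F letters were thus more common in the histone list than among genes with at least 5 FPKM. The letters CCAAT occurred in 31 of 40 mitosis promoters (77.5%), 20 of 34 replication promoters (58.8%) and 35 of 42 histone promoters (83.3%), and in 35.7% of all promoters. TATAAA occurred in 29 of 42 histone promoters (69.0%) and in 12.0% of all. A match says that these letters are in the window and does not show that a factor was bound.

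Most embryonic and oncofetal genes were lower. Of 25 measured genes 15 were lower and 2 higher, with a median of -1.12. Rescaled to the protein-coding median 11 were lower and 2 higher (median -0.79), and rescaled to the housekeeping list 9 were lower and 5 higher (median -0.08). Beside LIN28A, HMGA1 and TRIM71, CRABP1, a retinoic acid binding protein, had 34.9, 5.94 and 9.42 FPKM at D10, at D15 and in the cardiomyocytes. The 2 higher genes were the imprinted growth genes IGF2 and DLK1, chosen after their values were seen. IGF2 had 100.3, 260.2 and 705 FPKM, while DLK1 had 86.8, 277 and 75.3 and so stood lower in the cardiomyocytes than at D10.

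MicroRNAs that act on several of these genes could not be followed themselves, since libraries of fragmented long RNA do not capture mature microRNAs, and all 11 let-7 hairpin entries were listed at 0 in every column. The values of 4 host transcripts, chosen after they were seen, are given in their place. The mature sequences below are from RefSeq on GRCh38.p14, with the seed (bases 2 to 8) in capitals. They are shown because these microRNAs are known for repressing LIN28A and TRIM71 (let-7), promoting proliferation (miR-17), marking smooth muscle (miR-143) and responding to hypoxia (miR-210).
hsa-let-7a-5p, chr9:94175962-94175983, plus strand: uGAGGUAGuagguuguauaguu
hsa-miR-17-5p, chr13:91350618-91350640, plus strand: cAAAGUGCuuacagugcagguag
hsa-miR-143-3p, chr5:149428978-149428998, plus strand: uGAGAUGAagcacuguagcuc
hsa-miR-210-3p, chr11:568112-568133, minus strand: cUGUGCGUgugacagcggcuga

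No pair of these shares a seed. MIR17HG, the host of the miR-17 cluster, had 23.3 FPKM at D10, 6.52 at D15 and 3.11 in the cardiomyocytes. MIR143HG had 11.7, 24.7 and 27.997 FPKM in the same order, and MIR210HG 4.66, 23.9 and 21.8. So the miR-17 host was lower and the other two hosts higher at D15, each with the cardiomyocytes on the D15 side. MIRLET7DHG, a let-7 host, had 6.58, 5.44 and 7.03 FPKM and was called neither higher nor lower.

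Most contractile genes were higher at D15. Of 36 sarcomere genes 20 were higher (55.6%, against 7.4% of all genes) and 1, TTN with its listed 0, was lower, with a median of 1.10. Rescaled to the protein-coding median 27 were higher and the median was 1.46. The list's median difference from D10 was 2.29 in the cardiomyocytes. MYH7B, a relative of MYH7, had 6.85 FPKM at D10, 43.9 at D15 and 44.4 in the cardiomyocytes, and ACTN2, the alpha-actinin that anchors thin filaments at the Z disc, had 33.1, 187 and 189.5. Both reached their day 31 level by D15. The cardiomyocyte markers MYH6, the fast (alpha) myosin heavy chain, and TNNT2, cardiac troponin T, were already abundant at D10, with 504 and 807 FPKM. At D15 MYH6 had 1179.7 FPKM and TNNT2 1366, and in the cardiomyocytes 2123 and 2785. MYH7 thus stood at 161 FPKM beside 1179.7 for MYH6 at D15, both being levels per transcript length. The marker MYL7, the atrial light chain, had 1720.2, 3786 and 3792 FPKM.

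Many genes of calcium handling and ion channels were higher too. Of 24 measured genes 12 were higher and 1 lower, with a median of 1.00, and of the 28 that reached 5 FPKM after rescaling to the protein-coding median 17 were higher and none lower (median 1.16). CACNA1C, the L-type calcium channel that triggers contraction, had 14.7, 66.2 and 108 FPKM at D10, at D15 and in the cardiomyocytes. SLC8A1, the sodium-calcium exchanger, had 82.2, 244 and 376 FPKM. HRC, a calcium-binding protein of the sarcoplasmic reticulum, had 18.5, 63.3 and 65.4, and the potassium channel gene KCNQ1 had 1.01, 5.27 and 13.8. All 4 were at or above their D15 level at day 31. The lower gene was KCNJ3, an atrial potassium channel chosen after its values were seen, with 14.98, 6.23 and 5.56 FPKM.

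Muscle energy genes and cardiac transcription factors were less uniform. Of 22 energy genes 4 were higher and 2 lower (median -0.08), against 7.4% and 16.3% of all genes. The median difference of the cardiomyocytes from D10 was 0.58. CKMT2, the mitochondrial creatine kinase (3.28, 11.2 and 20.5 FPKM), PPARGC1A, a regulator of mitochondrial biogenesis (11.8, 31.8 and 41.2), and FABP3, the fatty acid carrier of heart muscle (52.7, 119 and 395), were higher. LDHB, the heart form of lactate dehydrogenase, was lower at D15, with 503, 223 and 376 FPKM. After rescaling to the protein-coding median 5 of 23 energy genes were higher and none lower (median 0.32), beside 1626 and 830 of all 12278 genes. Of 22 cardiac transcription factors 6 were lower and 1 higher (median -0.39), against 16.3% and 7.4% of all genes. After rescaling 4 were lower and 1 higher (median -0.04). The higher gene was TBX20, with 27.5, 117 and 242 FPKM. NR2F1, a factor of atrial identity, had 17.7, 2.88 and 2.27 FPKM, HAND1, of the early heart field, 40.97, 9.58 and 14.9, and the homeobox gene IRX3 30.4, 8.06 and 13.6. These 3 were low at D15 and in the cardiomyocytes alike. The marker NKX2-5, a core cardiac factor, had 54.6 FPKM at D10, 42.2 at D15 and 129 in the cardiomyocytes.

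Fibrillar matrix genes were the nuclear list with the highest median at D15. Of 38 measured genes 26 were higher (68.4%) and none lower, with a median of 1.60, and 31 were higher after rescaling to the protein-coding median (median 1.95). The median difference of the cardiomyocytes from D10 was 0.36. The list's summed FPKM was 3551 at D10, 11451 at D15 and 4255 in the cardiomyocytes. FBN1, fibrillin of the elastic microfibrils, had 11.99 FPKM at D10, 114 at D15 and 28.3 in the cardiomyocytes. POSTN, periostin of activated fibroblasts and heart valves, had 9.497, 83.2 and 62.4 FPKM in the same order. The stromal markers COL1A1 and COL3A1, the chains of type I and type III collagen, had 238 and 529 FPKM at D10, 733 and 2037 at D15, and 224 and 609 in the cardiomyocytes. Both collagens were therefore back near their D10 level at day 31, while POSTN stayed high. The small proteoglycan markers LUM and DCN had 50.05 and 25.4 FPKM at D10, 108 and 48.6 at D15, and 16.6 and 19.1 in the cardiomyocytes.

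Basement membrane genes encode the sheet around muscle and vessels, and most were higher too. Of 27 measured genes 17 were higher and none lower, with a median of 1.15 (1.47 with 23 higher after rescaling to the protein-coding median) and a median of 0.32 for the cardiomyocytes minus D10. COL4A1, a chain of the basement membrane's collagen network, had 53.1, 285 and 96.2 FPKM, and COL6A3, of type VI collagen, had 19.2, 147 and 27.3. LAMA4, a laminin chain, had 3.99, 29.3 and 32.9 FPKM. LAMA4 and LAMA2 were higher in the cardiomyocytes than at D15, and both collagen genes were lower there than at D15. Among 18 matrix proteases and inhibitors 7 were higher and 1 lower (median 0.91), against 7.4% and 16.3% of all genes. After rescaling, 11 of 20 were higher and none lower (median 1.19). Among the higher genes were the inhibitors SERPINE2 (9.71, 66.04 and 18.3 FPKM) and TIMP1 (30.03, 96.3 and 86.9) and the protease ADAMTS1 (20.7, 50.7 and 49.2). The lower gene was MMP11, chosen after its values were seen, with 34.5, 16.6 and 7.62 FPKM.

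The TGF-beta pathway is a known activator of matrix synthesis. Of 28 measured genes 9 were higher and 1 lower, against 7.4% and 16.3% of all genes, with a median of 0.15. Of 29 after rescaling 10 were higher and none lower (median 0.60). The higher genes, most of them chosen after their values were seen, included the ligand genes INHBA and TGFB1, the latent binding proteins LTBP1, LTBP2, LTBP3 and LTBP4, the activin inhibitor FSTL3 and the target gene TGFBI. LTBP2 had 1.28, 8.82 and 3.92 FPKM and LTBP3 10.9, 44.8 and 53.2. TGFBI, a matrix protein named for its induction by TGF-beta, had 43.7, 243 and 78.2 FPKM. The lower gene, chosen after its values were seen, was SMAD4, the shared mediator of the pathway, with 74.1, 35.8 and 56.2 FPKM. After rescaling SMAD4 was no longer called lower.

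Markers of stromal cells did not all follow the matrix genes. Of 18 fibroblast and mesenchymal markers 6 were higher and none lower, with a median of 0.52 (8 of 19 higher, median 0.81, after rescaling), and the median difference of the cardiomyocytes from D10 was -0.31. PDGFRB, a receptor of mural cells and fibroblasts, had 12.8, 49.8 and 14.3 FPKM, and IGFBP7, a secreted binding protein of growth factors, 68.03, 298 and 55.1. ENG, a TGF-beta co-receptor, had 2.401, 13.5 and 32.8 FPKM, and DKK3, a secreted Dickkopf protein, 24.3, 94.6 and 105. PDGFRB and IGFBP7 were back near or under D10 at day 31, while ENG and DKK3 were higher still. Other fibroblast markers, chosen after their values were seen, were not higher at D15: PDGFRA had 139 FPKM at D10 and 91.3 at D15, and vimentin (VIM) 619.7 and 353. TCF21, a defining factor of cardiac fibroblasts, stayed under 5 FPKM at both days (2.39 and 2.83). The list's summed FPKM was 1959 at D10, 2453 at D15 and 1296 in the cardiomyocytes.

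Smooth muscle markers had a median of 0.39 (7 of 17 higher, median 0.76, after rescaling). As deposited, none of 16 was lower, against 16.3% of all genes, and 4 were higher, against 7.4%. They were ACTG2 (3.06, 17.8 and 6.84 FPKM), the pericyte proteoglycan CSPG4 (2.78, 14.4 and 3.43), the smooth muscle myosin MYH11 (2.27, 9.58 and 7.005) and desmin, DES (5.81, 12.7 and 23.9), which heart muscle also expresses. Of 8 epicardial markers 1 was higher and none lower (median -0.42, and -0.11 with the same counts after rescaling). Among all genes 7.4% were higher and 16.3% lower. The higher epicardial marker was SEMA3D, a guidance ligand, with 7.67, 44.1 and 16.8 FPKM. The epicardial factor BNC1 had 17.05, 8.79 and 4.32. Of the markers of other possible cell types, 3 of 16 endothelial, 5 of 20 endoderm or liver, 6 of 17 neural and none of 15 blood markers reached 5 FPKM at D10 or D15. Their summed FPKM at D10, at D15 and in the cardiomyocytes was 73.9, 114 and 51.7 for the endothelial list, 97.7, 82.4 and 84.7 for endoderm and liver, 181, 304 and 356 for neural and 9.64, 14.3 and 8.11 for blood genes. EGFL7 was the 1 endothelial marker called higher (17.2, 41.1 and 13.9 FPKM), and of the neural markers 3 were higher and 2 lower. The higher ones included NCAM1, an adhesion molecule that heart muscle also expresses (51.9, 202 and 217 FPKM). NCAM1 alone held most of the neural sum at D15 and in the cardiomyocytes. The lower ones were DCX (9.08, 2.25 and 0.683) and TUBB3, whose listed 0 at D15 can be a failed estimate (32.6, 0 and 24.2). No endoderm or liver marker was called. The part of any of these cell types in the matrix result was not tested.

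No measured gene of glycolysis and the hypoxia response was lower at D15, and some were higher. Of 22 measured genes 9 were higher and none lower, with a median of 0.74 (13 higher, median 1.10, after rescaling to the protein-coding median), and a median of 1.19 for the cardiomyocytes minus D10. SLC2A1, the glucose transporter GLUT1, had 99.1, 689.7 and 176 FPKM, and SLC16A3, a lactate exporter, 33.3, 167 and 71.2. NDRG1, a hypoxia-induced gene, had 6.29, 44.7 and 25.2 FPKM, and HK2, the hexokinase whose promoter is shown above, 16.9, 79.5 and 54.1. All 4 were highest at D15 among these columns. The hypoxia core letters ACGTG occurred in 8 of 19 promoters of the list (42.1%), in 27.0% of the promoters of genes with at least 5 FPKM and in 21.6% of all. Mitosis promoters, whose genes were mostly lower at D15, held them at nearly the same share (16 of 40, 40%). The letters also occurred in 11 of 34 replication, 8 of 42 histone, 7 of 28 fibrillar matrix and 2 of 26 sarcomere promoters. Their share therefore does not set the hypoxia list apart from the mitosis list.

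Many immediate early and stress genes were lower at D15. Immediate early genes respond within minutes to handling or growth factors. The list also holds heat shock genes and other stress genes, ASNS, TRIB3 and DDIT3 among them. Of 22 measured genes 11 were lower and none higher, with a median of -1.16, and 11 were lower after rescaling to the protein-coding median (median -0.81). Rescaled to the housekeeping list, 3 were lower and 2 higher (median -0.12). The median difference of the cardiomyocytes from D10 was 0.83. ATF3, a stress-induced transcription factor, had 18.8 FPKM at D8, 33.8 at D10, 6.09 at D15 and 158 in the cardiomyocytes. DUSP1, a phosphatase that ends kinase signalling, had 36.6, 43.4, 10.8 and 30.9 FPKM in the same order. With EGR2 and NR4A1, these are the members with the largest differences, and ATF3, EGR2 and NR4A1 were highest at day 31.

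All 13 messenger RNAs of the mitochondrial genome were higher at D15. Both rescalings raise every D15 value, so they could not undo these calls. The median of the list's 14 measured members was 2.73 at D15 and 3.09 in the cardiomyocytes, both against D10, after -0.02 from D8 to D10. MT-ND2 had 165 FPKM at D8, 178 at D10, 1547 at D15 and 1654 in the cardiomyocytes, and MT-ND1 194, 189.6, 1509.9 and 1548. MT-RNR1, the small ribosomal RNA of mitochondria, was listed at 17879.9 FPKM at D8, at 18389 at D10, and at 0 at D15 and in the cardiomyocytes. MT-RNR2, the large ribosomal RNA, was listed at 0 in every column. Both the mitochondrial messages and the listed zero of MT-RNR1 set D15 and the cardiomyocytes apart from D8 and D10. Anything shared by these 2 columns also counts as kept by the rule used here, MT-ND4 included, and its part in the kept differences was not tested.

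**Figure D4:**
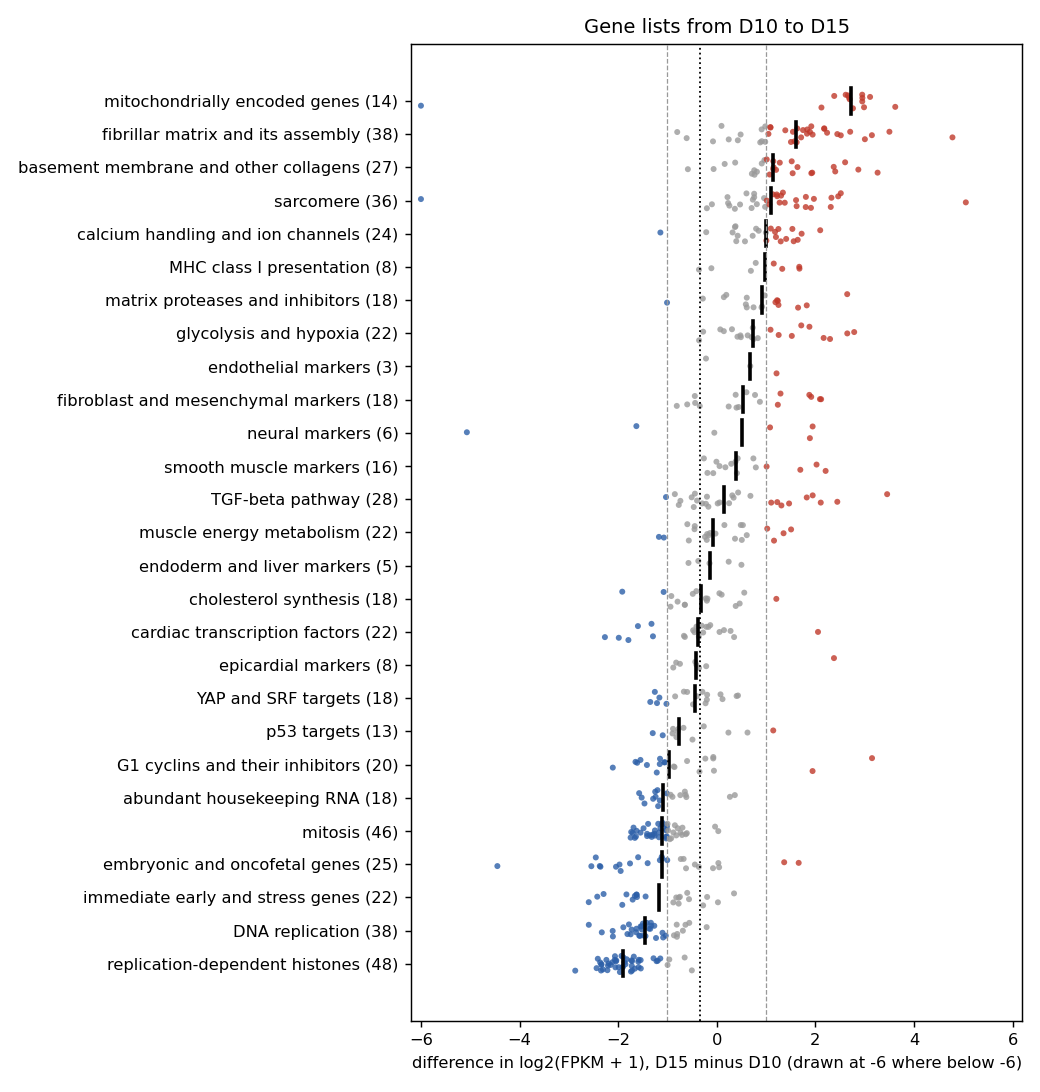
Each point is a gene of the list named on the left (number of genes with at least 5 FPKM in brackets), placed by its log2 difference, D15 minus D10; black bars are list medians, dashed lines mark a 2-fold difference and the dotted line the median of all genes (-0.35). Mitochondrial and matrix lists stand highest, the blood list has no gene to show, and histone and DNA replication lists stand lowest, with the housekeeping list (median -1.08) beside mitosis (-1.11).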

How the data were processed

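RNA of H7 derivatives was depleted of ribosomal RNA and sequenced, 2 libraries per group. The authors aligned reads to hg19 with TopHat2 2.0.8b and Bowtie2 2.1.0.0 and used Cufflinks, per the submitters' processing notes. The sources used here do not give the annotation or any scaling between days. The deposited time-course table holds a single FPKM for each gene on each day, so depth, counting error and library spread are unknown. A spreadsheet had turned 27 names into dates. The deposited tables of sorted cells were not used.

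From these values log2(FPKM + 1) differences were computed (Python 3.11.15, pandas 2.3.3, numpy 2.4.6), over genes with at least 5 FPKM at D10 or D15. The pseudocount of 1 understates changes of low genes. Gene types matched GENCODE 29 or RefSeq names for 10619 genes (90.2%), 10131 of them protein-coding. Named genes were the 15 largest increases and decreases among protein-coding genes above 0 in both columns and without a reversal, the 4 most changed members of each of 28 lists, members listed at 0 in 1 column, MYH7, LOX and LIN28A, and the 5 most changed reversing genes; 2 of the genes this rule names are not reported here. The comparison, its markers and the lists were chosen with earlier results of these data known. The rules were checked on simulated data. Of 9 alternatives 8 were planned and 1 was added after the data were seen.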

Additional observations from a re-analysis of the deposited data

How the results depend on the processing

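The counts of 871 higher and 1914 lower genes stayed within 1.5 times of these values with a pseudocount of 0.1, with protein-coding genes only, with genes above 0 in both columns only and with D8 in place of D10. With at least 1 FPKM required, or with no filter, 1373 genes were higher. A 4-fold threshold left 261 higher and 185 lower. Rescaled to the protein-coding median, 1626 were higher and 830 lower. Rescaled to the housekeeping list, an alternative chosen after seeing the data, 5208 were higher and 202 lower. Both rescalings raise every D15 value by construction. All 30 leading genes kept their sign under the 4 alternatives run on single genes: both rescalings, the pseudocount of 0.1 and D8 in place of D10. With D8, 12 of these leading genes moved by over 1.5-fold and 3 of 27 list medians did. With the pseudocount of 0.1, 8 leading genes moved. Rescaled to the housekeeping list, 28 leading genes and 26 list medians did. No paired analysis was possible because the table gives 1 column per day and does not hold the libraries apart. Depth cannot be read from FPKM, and 1136 genes lay within 0.1 of the 2-fold line, so single calls near it are weak.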

Other observations

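Some genes that present antigen were higher at D15 and none was lower. Of 8 measured genes of MHC class I presentation, which displays peptides at the cell surface, 4 were higher and none lower, with a median log2 difference of 0.97 (7 of 9 higher, median 1.41, after rescaling to the protein-coding median), and the median difference of the cardiomyocytes from D10 was 0.89. HLA-B had 8.45 FPKM at D10, 20.05 at D15 and 22.8 in the cardiomyocytes. HLA-C had 7.26, 25.4 and 27.6 FPKM in the same order, and TAPBP, which loads the peptides, 3.74, 14.1 and 20.3. Reads of the HLA genes are shared among similar copies, so their single values are uncertain.

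Targets of YAP and SRF, which respond to cell tension and contact, gave 5 of 18 genes lower and none higher. Among all genes 16.3% were lower and 7.4% higher. After rescaling to the protein-coding median 1 target was lower. The list's median of -0.44 turned to 0.63 after rescaling to the housekeeping list. AMOTL2 had 45.9, 17.4 and 32.9 FPKM, AJUBA 35.1, 14.1 and 14.5, and the actin gene ACTG1 1197, 534 and 696. Of 18 cholesterol synthesis genes 2 were lower (11.1%) and 1 higher (5.56%), no larger shares than those of all genes (16.3% and 7.4%). Their median was -0.32, or 0.04 rescaled to the protein-coding median and 0.75 rescaled to the housekeeping list. IDI1, an isomerase of the pathway, had 77.5, 19.8 and 49.2 FPKM, HMGCS1, an early enzyme, 139, 65.2 and 83.7, and DHCR7, a late one, 33.98, 79.8 and 42.5.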
